A study of Halocynthia roretzi with 24 samples.

Results

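Vegetal hemispheres of *Halocynthia roretzi* embryos were compared between the 110-cell and the 8-cell stage, with 4 libraries at each stage. The members of the comparison were all gene models with at least 1 RPKM (reads per kilobase of exon, scaled by library size) in 4 or more of these 8 libraries. This rule took in 11524 of the 16078 models in the expression table, or 71.7%. Of the members, 9723 reached 1 RPKM in all 8 libraries, 455 passed only through the 110-cell libraries and 1 only through the 8-cell libraries. The 683 members that reached 1 RPKM in just 4 libraries had a median level of 2.23 RPKM, and the 450 models that fell short by 1 library had a median of 0.953 RPKM. Of the 4554 models outside the rule, 1159 were listed at 0 in all 8 libraries.

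*H. roretzi* is a solitary ascidian, a sea squirt whose larva has a notochord and tail muscle. RNA was sequenced from animal hemispheres, vegetal hemispheres and whole embryos at 8 and 110 cells, in 6 groups of 4 libraries numbered 2 to 5. All groups were wild-type embryos of the southwestern Japanese population, from animals bred in an inland laboratory, and no treatment is named. The labels do not say how the hemispheres were parted, how many embryos a library holds or what the shared number marks, so p-values measure the spread between libraries, which may be partly technical.

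Ascidian embryos divide in a fixed pattern, and most founder cells can be traced to one tissue. Vegetal cells give endoderm, notochord, muscle, mesenchyme and part of the nervous system, while animal cells give the epidermis and the rest of the nervous system. The egg supplies maternal RNA, some of it anchored at the posterior vegetal pole, and during cleavage maternal RNA is lost while the embryo's own genes are switched on, so that a vegetal hemisphere just before gastrulation holds RNA of both origins.

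The 8 vegetal libraries were estimated to hold 3.67 to 6.53 M reads in genes, the mean being 5.65 ± 0.938 M at the earlier and 4.42 ± 0.795 M at the later stage (SD, n = 4). Among the 110-cell vegetal libraries, numbers 2 and 5 lay farther from the 8-cell vegetal libraries, with Spearman correlations across gene models of 0.840 to 0.868 and 0.855 to 0.864, than numbers 3 and 4, with 0.888 to 0.915 and 0.898 to 0.921. Genes are not independent replicates, so these correlations only describe the libraries. Tissue markers could not be looked up by name, because the annotation pairs no muscle, notochord, endoderm, mesenchyme or epidermis gene symbol with a model. In their place, models at least 4-fold higher in animal than in vegetal hemispheres in the other 3 numbers were taken, 187 to 212 of them. Their level in the 110-cell vegetal library had a median of 7.45%, 7.88%, 7.56% and 17% relative to the animal library of the same number, for numbers 2, 3, 4 and 5. The vegetal library of number 5 thus stood apart. In reverse, 289 to 338 models at least 4-fold higher in vegetal hemispheres in the other 3 numbers were taken. Their level in the 110-cell animal library had a median of 2.92%, 2.91%, 0.919% and 4.57% relative to the vegetal library. Number 5 was thus highest in both directions.

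Between 8 and 110 cells, 1270 of the 11524 members rose and 1391 fell in vegetal hemispheres (limma on log2(RPKM + 1), Benjamini-Hochberg adjusted p under 0.05). This was 11% and 12.1% of the members, against 11.6% and 11% of all 12703 models tested, and 23.1% against 22.6% for both directions together, so the members' shares lay near the background. At an unadjusted p under 0.05 there were 3899. Rises and falls were close in number and far apart in size. At least 4-fold changes in mean RPKM were found in 681 rises and 16 falls, where 6.90% and 0.165% of all models tested were called with such a change, and at least 2-fold changes in 866 rises and 426 falls. The 16 steep falls depended on single libraries and on the scaling, with 33 without the 110-cell library of number 4, 29 without that of number 3 and 9 after median-ratio rescaling, while the rises numbered 690, 682 and 694. The median model that rose went from 1.60 to 19.4 RPKM, and the median model that fell went from 56.7 to 31.7 RPKM.

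The membership rule bears on this asymmetry, since 451 of the 455 members that passed only through 110-cell libraries were called higher. Among the 9723 members at 1 RPKM or more in all 8 libraries, 606 rose with a median log2 change of 0.72 and 1352 fell with a median of -0.80. At the far end, 222 of the 1270 rises were listed at 0 in each of the 4 early vegetal libraries. No model that fell was listed at 0 in each of the 4 late ones. Because RPKM values are relative to the library, a change in the total amount of RNA cannot be seen in them, and fewer cells with a transcript and less of it per cell cannot be told apart.

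**Figure D1:**
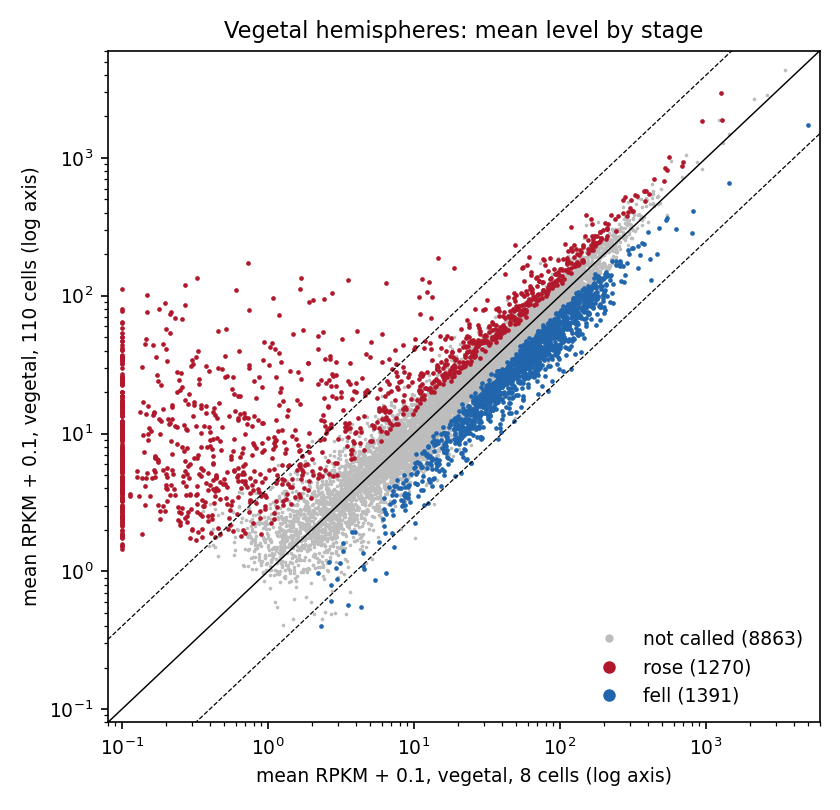
Mean RPKM plus 0.1 of the 11524 members in vegetal hemispheres at 8 cells (horizontal, log axis) and at 110 cells (vertical, log axis), each point a gene model and each mean over 4 libraries, with 1270 rises in red, 1391 falls in blue, a solid line for no change and dashed lines for 4-fold changes. The rises spread far above the upper dashed line on the left, where 8-cell levels are near 0, while nearly all falls lie between the solid and the lower dashed line at middle and high levels.

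The libraries' numbers entered the result. Same-numbered 8-cell and 110-cell vegetal libraries deviated together from their group means, and with the number as a block in the limma fit 1871 members rose and 2262 fell, including all 1270 and all 1391 of the calls without the block (16.6% and 17.9% of all models tested). Without number 5 of every group, 883 rose and 770 fell. After median-ratio rescaling of the libraries 1514 rose and 1105 fell, so which direction held more models depended on the scaling. The stages did not overlap, with all 4 libraries of one stage above all 4 of the other, in 1324 members in the rising and 1350 in the falling direction, against 11.6% and 10.7% of all models tested.

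A set of transcripts went from at or near 0 to high levels. The identifiers of all gene models begin with Harore.CG.MTP2014, which is left out below, and the number after S is the scaffold. S42.g07916, S184.g04760, S575.g13659, S423.g11821, S80.g04926 and S1.g15733 passed the rule only through the 110-cell libraries, so their direction follows from it. The model S42.g07916 (9 exons, positions 246315 to 250245 of scaffold S42, best match KH.C1.224) was listed at 0 in the 4 early vegetal libraries and reached 91.0, 107, 124 and 127 RPKM in the late ones. All 4 of the later libraries were thus high and close together. Their mean of 112 ± 16.5 RPKM (SD, n = 4) was at least 173-fold higher than 0.649 RPKM, which is what 3 read pairs amount to per library for a model of this length (log2 change 6.81 ± 0.37 SE, limma adjusted p = 2.16e-12).

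The model S184.g04760 (positions 52093 to 54874, best match KH.L119.3) was also at 0 in all 4 libraries at 8 cells, and stood at 93.4, 70.6, 56.0 and 87.6 RPKM at 110 cells. This was at least 129-fold higher than its limit of 0.596 RPKM (log2 change 6.26 ± 0.26 SE, limma adjusted p = 6.29e-14). The model S575.g13659 (positions 44926 to 46360, best match KH.C8.649) followed from 0 in all 4 to 108, 36.3, 61.1 and 114 RPKM, at least 83.6-fold higher than 0.955 RPKM (log2 change 6.20 ± 0.44 SE, adjusted p = 1.58e-10). In these 3 models no 110-cell library came near the 8-cell ones, and in S575.g13659 numbers 2 and 5 were the high ones.

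Others were detected at 8 cells in 1 to 3 of the 4 libraries, always below 2 RPKM. S104.g10185 (positions 229361 to 231074, best match KH.C6.217) stood at 0.665, 1.60, 0 and 0.276 RPKM in the early libraries of numbers 2 to 5, and reached 258, 126, 97.7 and 205 RPKM in the late ones (log2 change 6.71 ± 0.35 SE, adjusted p = 1.48e-12). S423.g11821 (positions 1 to 2864, best match KH.C5.485) was above 0 in 1 library at 8 cells, at 0.195 RPKM, and stood at 129, 71.5, 55.8 and 148 RPKM at 110 cells (log2 change 6.50 ± 0.44 SE, adjusted p = 8.12e-11). S80.g04926 (positions 38960 to 39795), which has no match in the annotation, was above 0 only in number 5 at 8 cells, at 0.909 RPKM, and stood at 161, 85.1, 79.7 and 214 RPKM at 110 cells (log2 change 6.73 ± 0.39 SE, adjusted p = 7.62e-12). In all 3 the 110-cell libraries of numbers 2 and 5 were above those of numbers 3 and 4. No ratio is given for them, because their 8-cell means of 0.0486 to 0.635 RPKM lie below the limit of 3 read pairs.

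S1.g15733 (positions 1044659 to 1046343, best match KH.C10.360) rose from 0.683 RPKM in number 2 and 0 in the others to 159, 70.6, 55.9 and 195 RPKM (log2 change 6.55 ± 0.50 SE, adjusted p = 6.16e-10). Animal hemispheres went from 0.974 ± 1.02 to 88.2 ± 54.2 RPKM for this model (SD, n = 4), and the difference between the 2 hemispheres' changes was not called (log2 1.14 ± 0.70 SE, adjusted p = 0.789). S80.g04926 was the other of these models with a clear animal level, 16.5 ± 8.17 RPKM at 110 cells, and the difference of its changes was 2.74 ± 0.56 SE (adjusted p = 0.00218). With a pseudocount of 0.1 that difference was 2.23 and did not pass the threshold (adjusted p = 0.432).

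**Figure D2:**
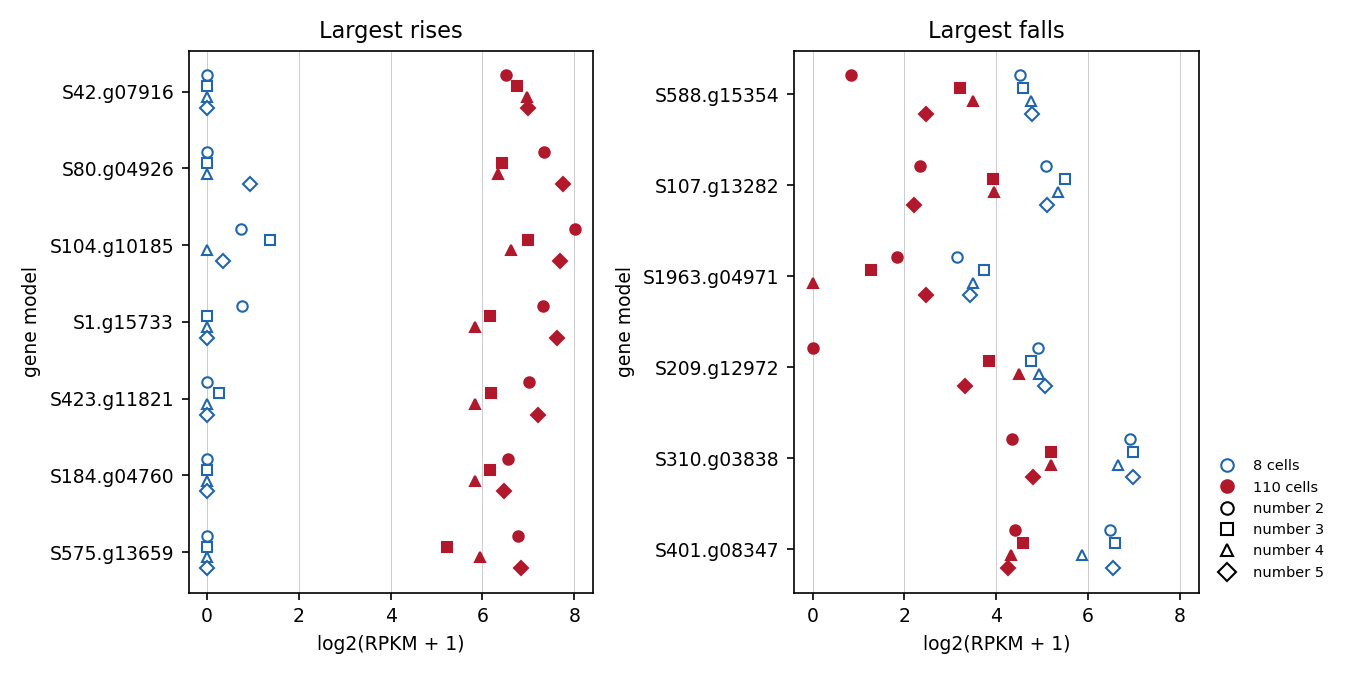
Level of the models with the largest rises (left) and falls (right) in each vegetal library, as log2(RPKM + 1), with open blue symbols for 8 cells, filled red symbols for 110 cells and a symbol shape for each library number. The rises start at or near 0 and all end above 5 on this scale, and in the falls the 110-cell libraries of numbers 2 and 5 are often the lowest.

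The steepest falls stopped well short of 0 in most libraries. S588.g15354 (1 exon, positions 26196 to 27800, best match KH.S762.5) stood at 22.1, 23.1, 26.3 and 26.4 RPKM at 8 cells and then at 0.796, 8.34, 10.2 and 4.53 RPKM. S107.g13282 (positions 69439 to 70611, best match KH.C3.710) stood at 33.0, 44.5, 39.8 and 33.5 RPKM and then at 4.10, 14.2, 14.4 and 3.64 RPKM. In both, the stages did not overlap, and the 110-cell libraries of numbers 2 and 5 were lower than those of numbers 3 and 4. The means fell 4.10-fold (log2 -2.16 ± 0.44 SE, limma adjusted p = 0.000743) and 4.14-fold (log2 -2.15 ± 0.35 SE, adjusted p = 6.35e-05).

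S401.g08347 (1 exon, positions 84787 to 86328, best match KH.C9.207) fell evenly in all 4 numbers, from 87.9, 94.9, 57.7 and 92.0 RPKM to 20.2, 23.1, 19.1 and 18.1 RPKM. Its 4.13-fold fall (log2 -1.97 ± 0.23 SE, adjusted p = 6.16e-07) had the smallest p of the 6 named falls. S310.g03838 (positions 109593 to 110664, matched to a protein record) fell from 119, 126, 100.1 and 126 RPKM to 19.4, 35.7, 35.9 and 27.0 RPKM, a 3.99-fold fall (log2 -2.0 ± 0.26 SE, adjusted p = 3.77e-06). Neither depended on a single library.

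S1963.g04971 (positions 1 to 1491, best match KH.L157.4) fell from 7.90, 12.3, 10.2 and 9.83 RPKM to 2.58, 1.41, 0 and 4.58 RPKM (log2 -2.06 ± 0.54 SE, adjusted p = 0.00669), with 1 library at 0. S209.g12972 (positions 159065 to 160255, best match KH.L18.85, marked as a low match in the annotation) fell from 29.2, 26.2, 29.6 and 32.7 RPKM to 0, 13.3, 21.5 and 9.04 RPKM (log2 -2.01 ± 0.63 SE, adjusted p = 0.0235). Without the 110-cell library of number 2, which is at 0, the log2 change was -1.04 (adjusted p = 0.0889), and without number 5 of the 8-cell libraries the adjusted p was 0.0538.

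Among abundant transcripts the changes were smaller on the log scale and large in RPKM. S64.g15844 (positions 294622 to 300649, best match KH.C4.213) rose from 1529, 982, 1362 and 1184 RPKM to 3500, 2805, 2356 and 3138 RPKM, a 2.33-fold rise (log2 1.23 ± 0.19 SE, limma adjusted p = 4.51e-05). All 110-cell libraries lay above all 8-cell ones. It overlaps 2 other models, and since the libraries did not keep strand, reads of overlapping models cannot be told apart. The other named rises of this kind were S11.g10443 (KH.C11.203), S28.g10387 (KH.L71.28) and S60.g15586 (KH.L18.14). They started at means of 526, 539 and 441 RPKM and reached 850 ± 160, 817 ± 91.0 and 699 ± 99.9 RPKM (SD, n = 4). These were rises of 1.61-fold, 1.52-fold and 1.59-fold (adjusted p = 0.00982, 0.000465 and 0.00616). The call of S11.g10443 was lost after quantile normalization (adjusted p 0.0644) and without number 2 or 3 of every group (0.104 and 0.0578). That of S60.g15586, which overlaps 2 other models, was lost after quantile normalization (0.104) and without number 3 of every group (0.0520). Both were lost without the 110-cell vegetal libraries of numbers 2 and 5 (0.172 and 0.118). S28.g10387 kept its call in all alternative fits.

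The largest fall in RPKM was that of S214.g10945 (4 exons, positions 75231 to 78817, no match in the annotation), named after its values were seen. The libraries of numbers 2 to 5 read 5162, 5051, 5370.5 and 4313 RPKM at the 8-cell stage and 1578, 1607, 2184 and 1609 RPKM later, so that the stages were far apart (log2 -1.52 ± 0.16 SE, adjusted p = 8.61e-08). S657.g00481 (positions 11023 to 13910, best match KH.C11.95) fell from 1623, 1447, 1408 and 1300 RPKM to 698, 671, 701 and 573 RPKM, a 2.19-fold fall (log2 -1.13 ± 0.12 SE, adjusted p = 1.29e-07). S118.g04444 (KH.S483.2) fell from 816 ± 110 to 409 ± 37.4 RPKM and S14.g14514 (KH.S455.3) from 461 ± 96.4 to 200 ± 15.1 RPKM (SD, n = 4; adjusted p = 8.11e-05 and 2.73e-05).

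S480.g14149 (positions 10488 to 16473, best match KH.C1.755), which overlaps 1 other model, went from 658, 868, 967 and 731 RPKM to 384, 202, 324 and 239 RPKM, against animal means of 131 and 40.0 RPKM. This was a 2.81-fold fall (log2 -1.52 ± 0.22 SE, adjusted p = 1.34e-05), and the change in animal hemispheres was a log2 of -1.69. Whole embryos fell from 442 ± 16.3 to 48.5 ± 14.7 RPKM (SD, n = 4; log2 -3.21), more than either hemisphere. The cause of that was not tested.

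Many abundant transcripts kept their level. The 95% confidence interval of the log2 change lay within -0.5 to 0.5 for 1472 members, or 12.8%, whose median level was 56.4 RPKM against 22.4 RPKM for all members. A narrow interval is easier to reach at high levels, so this share is not a count of all stable transcripts. The most abundant of them with a named match was S36.g05846 (positions 206582 to 207954, best match KH.C10.73), which read 1741, 1764, 1083 and 1173 RPKM in the early and 1058, 1890.0, 1314 and 1683 RPKM in the late libraries, where the stages overlapped (log2 change 0.04 ± 0.18 SE). S20.g11052 (KH.S545.7) stood at 868 ± 112 and 928 ± 174 RPKM and S74.g04608 (KH.C1.133) at 688 ± 105 and 731 ± 78.4 RPKM at 8 and 110 cells (SD, n = 4).

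The shares of rises and falls varied with the level before. Members were sorted by their mean in animal hemispheres at 8 cells, libraries that the vegetal fold change does not use. Of the 750 members under 1 RPKM there, 74% rose and 0.4% fell, but 447 of these 750 had passed only through the 110-cell libraries. Among all 1742 models tested in this class 43.1% rose, but these too had to reach 1 RPKM in some libraries to be tested. Models near 0 at 8 cells also have little room to fall. The direction in this class is thus largely set by the selection and the low start, and no conclusion is drawn from it. From 1 to 5 RPKM, 11.1% of 1642 rose and 1.10% fell, and from 5 to 20 RPKM 5.79% of 2972 rose and 6.36% fell. Above 20 RPKM falls outnumbered rises, with 17.6% of 4942 falling and 5.28% rising from 20 to 100 RPKM and 25.9% of 1190 falling and 7.73% rising from 100 to 500 RPKM. Of the 28 members at 500 RPKM or more, 8 rose and 5 fell. Smaller changes can be called at higher levels, where the median standard error was 0.16 to 0.20 on the log2 scale against 0.38 from 1 to 5 RPKM.

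**Figure D3:**
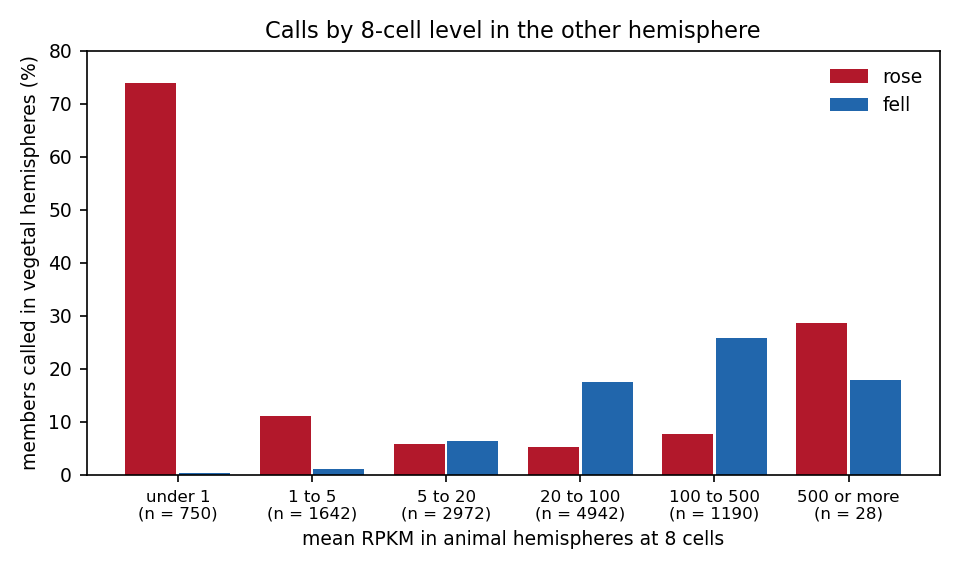
Share of members called higher (red) or lower (blue) in vegetal hemispheres at 110 cells, in percent, by their mean RPKM in animal hemispheres at 8 cells, with the number of members in each class. Rises make up 74% of the class under 1 RPKM, where most members passed only through 110-cell libraries and models near 0 have little room to fall. Falls outnumber rises from 5 to 500 RPKM.

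Model structure showed smaller differences. Of the 1390 members with a single exon, 8.49% rose and 15.5% fell, against 9.20% and 14% of all 1544 such models tested. Members with 2 to 3 exons rose in 11.8% and fell in 10.5%, against 12.5% and 9.16% of all such models tested. Those with 11 or more exons rose in 10.2% and fell in 11.9%, against 10.5% and 11.3%. By the annotation's note, 11.2% of the 7831 members with a KH match of usual quality rose. So did 16.6% of the 445 with a KH match marked low, 7.45% of the 416 matched to a protein record and 10.1% of the 2832 with no match. In the same order, 307, 40, 11 and 97 of these members passed only through the 110-cell libraries, and nearly all such members were called higher. For the match classes the share over all models tested was not taken. These shares were not tested against each other.

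Many rises had a called larger change in vegetal than in animal hemispheres, and few falls did. The difference between the vegetal and the animal stage change was called for 523 members (limma, contrast of the 2 stage changes). The change was higher in vegetal hemispheres for 416 and in animal hemispheres for 107. Over all 12703 models tested the counts were 442 (3.48%) and 209 (1.65%). The rule asks for vegetal levels, and it left out more models of the second kind, so the asymmetry is larger among members. With a pseudocount of 0.1 the members' counts were 331 and 50, and under a filter of 5 RPKM 257 and 92. The members' second count was 65 to 71 without 1 number of every group and 167 with the number as a block. Of the 1270 rises, 412 rose more than in animal hemispheres and 53 rose less. Of the 1391 falls, 0 had a called difference towards a higher vegetal change and 10 towards a lower one. With the number as a block, 30 of the 1391 had a called difference towards a lower vegetal change. The falls were also smaller, with a median vegetal log2 change of -0.81 against 1.52 for the rises, which left less room for a called difference. A missing call does not show that the 2 changes are equal. The 2 tests use the same vegetal libraries, so these counts describe the rises and falls and do not support them.

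The vegetal calls were also set beside animal and whole-embryo libraries, which the vegetal change does not use. Since the calls were made on vegetal values, smaller medians elsewhere are partly fixed by that choice. The 1270 rises had a median log2 change of 1.52 in vegetal hemispheres, 0.45 in animal hemispheres and 1.09 in whole embryos. The 1391 falls had medians of -0.81, -0.57 and -0.74, and 1366 of them had a negative change in animal hemispheres. Of the rises, 452 (35.6%) also rose in animal hemispheres, which is 70.6% of the 640 members that rose there (7.15% of all models tested), and 958 (75.4%) rose in whole embryos, 66.1% of the 1449 members that rose there (13.5% of all models tested). Of the falls, 639 (45.9%) fell in animal hemispheres, 85.5% of the 747 that fell there (5.89% of all models tested), and 978 (70.3%) fell in whole embryos, 70.9% of 1380 (10.9% of all models tested). Same-numbered libraries of the 2 hemispheres deviated together, and all groups shared 1 estimate of the spread, so these lists are not independent.

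**Figure D4:**
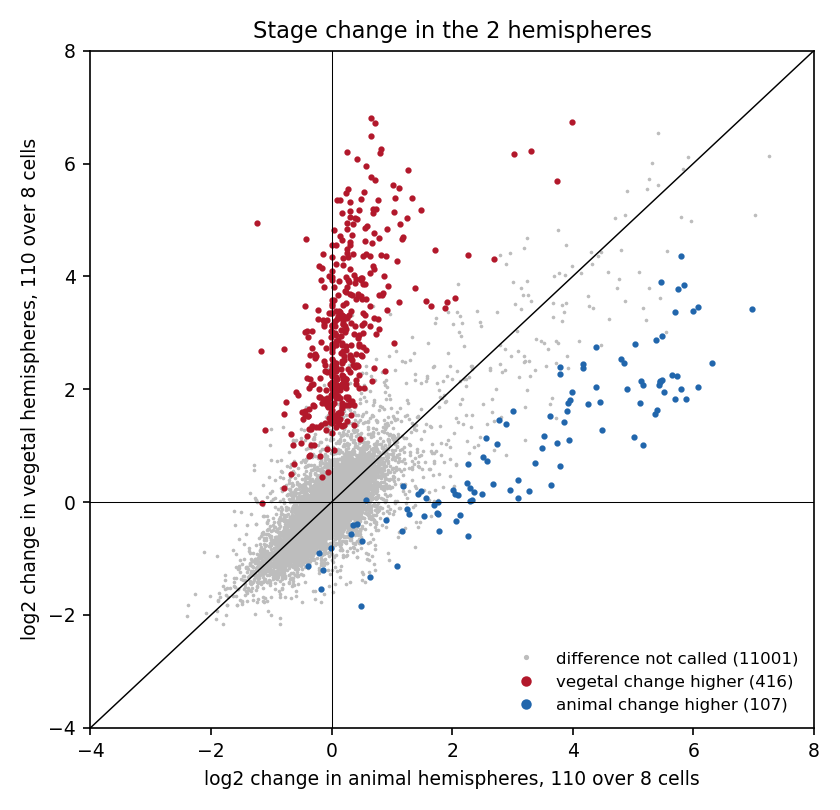
Log2 change from 8 to 110 cells of the 11524 members in animal (horizontal) and vegetal hemispheres (vertical), each point a gene model, with 416 members whose vegetal change was higher in red, 107 whose animal change was higher in blue, and a line where both changes are equal. The red points form a column near 0 on the animal axis that reaches 6.81 on the vegetal axis. Most falls lie in the grey cloud along the line, and 10 are among the blue points.

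The 416 members with the higher vegetal change had a median log2 change of 2.78 in vegetal and 0.16 in animal hemispheres. S42.g07916, at 0 in vegetal hemispheres at 8 cells, stood at 0, 1.24, 0.212 and 3.87 RPKM in animal hemispheres at 110 cells, against at least 91.0 RPKM in the vegetal ones (difference of log2 changes 6.16 ± 0.52 SE, limma adjusted p = 2.19e-08). S104.g10185 stood at 0.884, 2.14, 1.51 and 1.49 RPKM in animal hemispheres at 110 cells (difference 6.0 ± 0.50 SE, adjusted p = 1.82e-08). For S575.g13659 and S423.g11821 the differences were 5.93 ± 0.62 and 5.84 ± 0.62 SE (adjusted p = 5.65e-07 and 7.28e-07), with no animal library above 3.01 RPKM at 110 cells. In all 4 models every animal value at 110 cells lay below every vegetal value of the stage. Whole embryos lay between, at 32.2 ± 13.8 RPKM for S42.g07916 and 51.5 ± 10.4 RPKM for S104.g10185 (SD, n = 4).

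A smaller set rose mainly in animal hemispheres and reached low levels in vegetal ones. S182.g13272 (positions 36269 to 38720, best match KH.C2.957, marked low) stood at 2.19, 3.65, 2.44 and 11.8 RPKM in vegetal hemispheres at 110 cells, from 0 to 0.395 RPKM at 8 cells, and at 123, 164, 123 and 148 RPKM in animal hemispheres (difference -4.03 ± 0.55 SE, limma adjusted p = 2.03e-05). S44.g07571 (positions 324769 to 327022, best match KH.L154.24, overlapping 1 other model) stood at 7.20, 1.01, 3.38 and 18.6 RPKM in vegetal and 93.1, 45.0, 60.0 and 100.5 RPKM in animal hemispheres at 110 cells (difference -4.05 ± 0.88 SE, adjusted p = 0.00455). S172.g11557 (positions 43619 to 49446, matched to a protein record, overlapping 1 other model) stood at 6.75, 4.25, 1.70 and 22.2 RPKM in vegetal hemispheres (difference -3.87 ± 0.67 SE, adjusted p = 0.000381). In each of these, number 5 was the highest vegetal library at 110 cells. With a pseudocount of 0.1 the differences of S182.g13272 and S44.g07571 were no longer called (adjusted p = 0.151 and 0.0678), and that of S44.g07571 was also lost without number 4 of every group (0.108).

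The vegetal rise of S182.g13272 was a log2 of 2.04 ± 0.39 SE (limma adjusted p = 0.000356), and 1.60 without the 110-cell vegetal library of number 5 (adjusted p = 0.00177). That of S172.g11557 was 1.83 ± 0.47 SE (adjusted p = 0.00614), and 1.26 without that library (adjusted p = 0.0339). It was lost without number 5 of every group (log2 1.28, adjusted p = 0.0883). Both rises were thus smaller without number 5.

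The fourth, S121.g10521 (positions 86215 to 88117, best match KH.C7.355), stood at 2.33, 1.70, 0.707 and 12.6 RPKM in vegetal hemispheres at 110 cells and had a called difference (-3.86 ± 0.65 SE, adjusted p = 0.000294) but no called vegetal rise (log2 change 1.15 ± 0.46 SE, adjusted p = 0.0766, and 0.0471 with the number as a block). Its log2 change was 0.54 without the 110-cell vegetal library of number 5 (adjusted p = 0.365) and 1.54 without that of number 4, where it was called (adjusted p = 0.0172). The vegetal rise of S44.g07571 (log2 1.82 ± 0.62 SE, adjusted p = 0.0379) was lost without the 110-cell vegetal library of number 5 (log2 1.27, adjusted p = 0.174) or of number 2 (0.0919), and without the 8-cell library of number 2, 3 or 5 (0.0676, 0.0591 and 0.118). It was also lost with a pseudocount of 0.1 (0.0612) and after quantile normalization (0.135).

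Number 5 stood out across the 53 vegetal rises that were smaller than the animal ones. Of these, 40 had their highest 110-cell vegetal value in number 5, 6 in number 2, 6 in number 3 and 1 in number 4. Among the other 1217 rises the highest value was in number 5 for 435, in number 2 for 426, in number 3 for 230 and in number 4 for 126. Without that library, 48 of the 53 were still called higher. This is the library in which animal-higher models stood at 17% of the animal level, and the part of that in these rises was not tested.

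Falls with a called lower change in vegetal than in animal hemispheres were few, 10 without and 30 with the number as a block. Of the 10, 8 have a named match. These models were listed after their values were seen. S443.g06786 (positions 3589 to 5255, best match KH.C2.994) fell from 101, 123, 111.3 and 111.1 RPKM to 76.9, 76.3, 73.0 and 52.9 RPKM in vegetal hemispheres (log2 -0.68 ± 0.17 SE, limma adjusted p = 0.00494), while animal hemispheres stood at 86.6 ± 15.8 and 125 ± 38.5 RPKM (SD, n = 4; difference -1.18 ± 0.24 SE, adjusted p = 0.00255). S47.g01399 (positions 393441 to 395747, best match KH.L79.1) fell from 25.2, 25.7, 24.3 and 37.7 RPKM to 6.13, 7.31, 9.90 and 13.8 RPKM, while animal hemispheres stood at 24.6 ± 5.84 and 21.6 ± 5.04 RPKM (difference -1.37 ± 0.37 SE, adjusted p = 0.0255). In both, the vegetal stages did not overlap. The difference of S443.g06786 held without any 1 library (adjusted p at most 0.00824) and was lost without number 4 of every group (0.0688). That of S47.g01399 missed the threshold in 5 of 16 fits without 1 library (adjusted p at most 0.0711). Among vegetal libraries these left out number 5 at 8 cells or number 2 or 3 at 110 cells. Among animal libraries they left out number 2 at 8 cells or number 4 at 110 cells. It was also lost without number 2, 3 or 4 of every group (0.0939, 0.176 and 0.135). With the number as a block in the limma fit, the adjusted p of these 2 differences was 0.000256 and 0.000682. The differences of the other 6, which lie between -1.98 and -0.69, were each lost in 7 or more of those 16 fits.

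The 1 member that passed only through the 8-cell libraries, S3.g05060 (positions 515640 to 516411, no match in the annotation, overlapping 1 other model), stood at 2.11, 4.23, 5.47 and 5.26 RPKM and then at 0.689, 0, 0.502 and 0.612 RPKM (log2 -1.83 ± 0.48 SE, adjusted p = 0.00732). It was named after its values were seen. In animal hemispheres it stood at 3.09 ± 2.17 and 3.89 ± 1.17 RPKM (SD, n = 4), and the difference of the changes (-2.33 ± 0.68 SE, adjusted p = 0.0484) was lost in 12 of 16 fits that left out 1 library (adjusted p at most 0.108). Both vegetal means lie near or below the 3.12 RPKM that 3 read pairs amount to for this short model.

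Some models that share a best match had the same call. Of the members with a KH match, 2984 share it with at least 1 other member, in 1254 sets. Of these 2984, 14% rose and 9.58% fell, against 10.1% and 13.6% of the 5292 members whose match is theirs alone. Members that passed only through the 110-cell libraries count among these rises, such as 8 with KH.C8.649 and 5 with KH.S1432.1 below. The share over all models tested was not taken. In 85 sets at least 2 members rose, in 20 at least 3 and in 5 at least 4, while 40 sets had at least 2 falls and 2 had at least 3. Whether members of a set moved together more often than other members was not tested. Near-identical copies can share reads, so their levels are uncertain and they are not independent. The sets below were picked by their counts of calls.

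The set with the most rises was that of KH.C8.649, with 9 members. Of these, 8 rose from at or near 0, the highest 8-cell value being 0.551 RPKM, to means between 24.6 ± 11.9 and 87.8 ± 43.7 RPKM at 110 cells (SD, n = 4). Summed over these copies, vegetal hemispheres stood at 569, 179, 222 and 505 RPKM at 110 cells, and animal hemispheres at 0.303, 5.62, 0 and 6.34 RPKM. Numbers 2 and 5 were again above numbers 3 and 4 in vegetal hemispheres, and no animal library reached the lowest vegetal one. These 8 passed the rule only through the 110-cell libraries, so their direction follows from it. All 8 also had a called difference to the animal change. The copies lie on several scaffolds, 3 of them in a row on S1 between positions 953852 and 961792 and 2 on S575 between 41720 and 46360, and 5 of the 8 have an exon length of 1137 bases.

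The ninth, S14.g02421 (positions 238497 to 240946), was present before and fell, from 95.9, 119, 190 and 160 RPKM to 113, 52.4, 74.5 and 90.1 RPKM (log2 -0.77 ± 0.24 SE, limma adjusted p = 0.0231). The stages overlapped, and the call was lost without number 4 or 5 at 8 cells or number 3 at 110 cells (adjusted p at most 0.0984). It overlaps the abundant S14.g14514, which also fell, and reads from the shared stretch cannot be told apart.

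**Figure D5:**
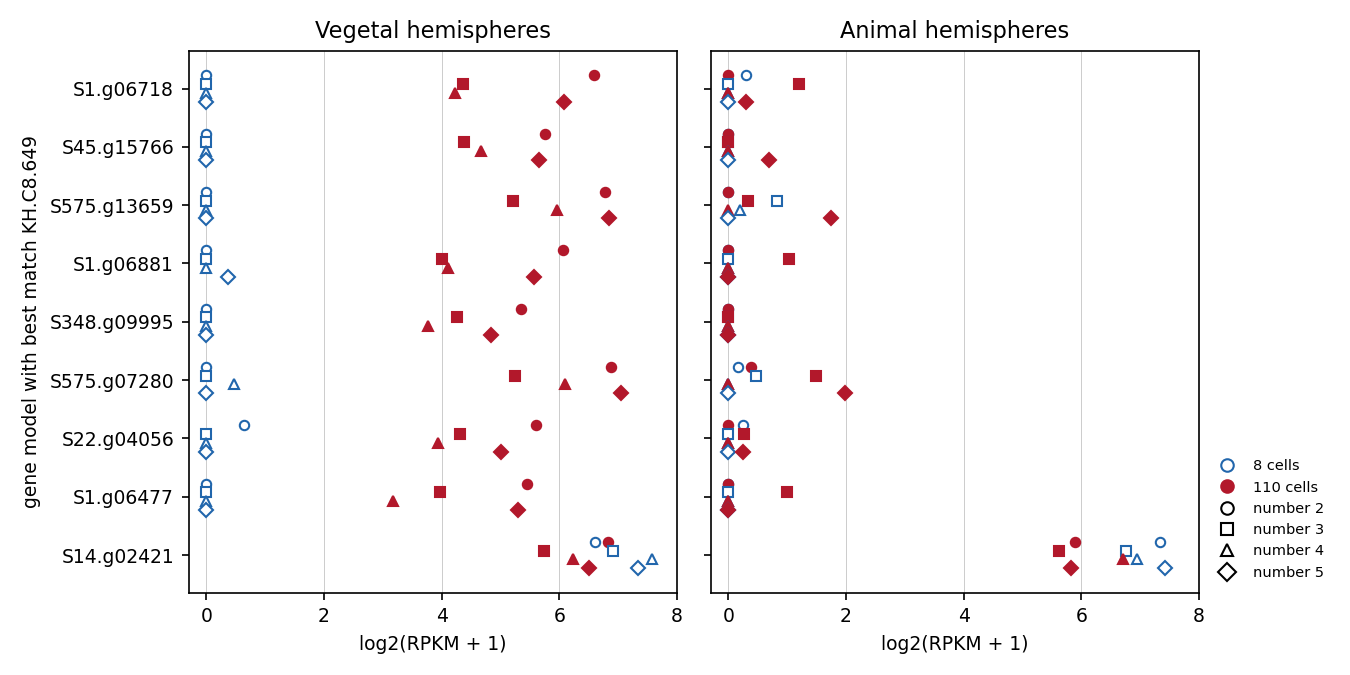
Level of the 9 members with the best match KH.C8.649 in vegetal (left) and animal hemispheres (right), as log2(RPKM + 1), with open blue symbols for 8 cells, filled red symbols for 110 cells and a symbol shape for each library number. In 8 copies the 110-cell vegetal libraries stand far from the 8-cell ones and the animal libraries stay near 0, while S14.g02421 is high in both hemispheres and at both stages.

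Other sets showed further patterns. Of the 16 models annotated with KH.S1432.1, 5 are members, and these were at 0 in every vegetal 8-cell library and at means of 3.12 ± 1.24 to 7.43 ± 1.92 RPKM at 110 cells (SD, n = 4). They passed the rule only through the 110-cell libraries, so their direction follows from the rule. Of the 6 members with KH.C1.1186, 5 rose, among them 1 abundant model that went from 409 ± 49.7 to 544 ± 68.1 RPKM and 4 that started at or near 0. The 4 members with KH.C3.502 rose in both hemispheres, by a vegetal log2 change of 1.73 to 3.21, and none had a called difference. In the set of KH.L153.26, 4 of 12 members fell and S1166.g06526 (positions 2007 to 6859) rose from 12.4, 11.9, 9.54 and 14.5 RPKM to 86.1, 148, 93.7 and 95.7 RPKM (log2 3.01 ± 0.26 SE, adjusted p = 4.43e-09).

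Rises and falls also met within a set. In 30 sets at least 1 member rose and 1 fell, and the widest gap was that of KH.C10.360, where S1.g15733 rose as described and S1.g00418 (positions 1039565 to 1040155), which lies upstream of it on the same strand and scaffold, fell from 152, 122, 162 and 149 RPKM to 113, 65.7, 56.8 and 78.5 RPKM (log2 -0.93 ± 0.29 SE, adjusted p = 0.0235). The fall was lost without number 4 or 5 at 8 cells or number 3 or 4 at 110 cells (adjusted p at most 0.0737). Of the 3 members with KH.C10.511, all fell, with log2 changes of -0.98 to -0.61.

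The 10 members on scaffold S964, where the annotation's note for S964.g01698 (positions 6139 to 6998) gives ND5, a mitochondrially encoded part of NADH dehydrogenase, had no call between the stages. S964.g01698 read 1909, 3254, 1834 and 3433 RPKM in the early and 4243, 1453, 1704 and 4018 RPKM in the late libraries, with numbers 2 and 5 high and 3 and 4 low at the later stage (log2 change 0.03 ± 0.45 SE, limma adjusted p = 0.978). All 10 had a higher mean at 110 cells, 1.09 to 2.17 times the 8-cell mean, with adjusted p of 0.136 or more. In 7 of them the highest 110-cell value was in number 2, and without that library the ratios were 0.917 to 1.54. With the number as a block 5 of the 10 were called higher.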

How the data were processed

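RNA from vegetal hemispheres at 8 and 110 cells, 4 libraries each, was analysed together with the animal and whole-embryo libraries of the same table. The authors deposited RPKM values per gene model, made from TruSeq libraries that did not keep strand, per the labels' protocols, and aligned with HISAT2, per the submitters' processing notes. Total RNA was taken with Trizol, per the labels' protocols. For the counting tool and the genome build, the sources used here give nothing. Model positions, exons and best matches come from the deposited annotation. Best matches begin with KH for 8276 members, name a protein record for 416 and are absent for 2832. The KH identifiers are not explained in the files, so no function is given for them.

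Depth is not stated. It was estimated from the steps of low RPKM values, of which 69.7 to 73.9% in the vegetal libraries lay within 0.1 of a whole read (20% by chance), too few for a count test. For a model of 1.5 kb, 3 read pairs amount to 0.613 to 1.09 RPKM. These limits cover counting error only.

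All 24 libraries entered 1 limma 3.58.1 fit (R 4.3.3) with 6 groups, on log2(RPKM + 1), with a trend of the variance on the mean level, over 12703 models that reached 1 RPKM in 4 or more of them. Fold changes on this scale understate the change of low models. P-values were adjusted over all models tested (Benjamini-Hochberg), with a threshold of 0.05, and SE is limma's standard error. The fit was tested on simulated data with 200 changed models. Same-numbered vegetal libraries of the 2 stages deviated together (correlations 0.25, 0.37, 0.32 and 0.15 for numbers 2 to 5, all above 0.1), so the number was taken to pair them. The fit with it as a block is given beside some results. Where the block is not named, counts, p-values and fits that leave out libraries come from the fit without it.

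To be named as a rise or fall, a called model needed a higher-stage mean of 5 RPKM or more, no overlap between the stages and the same sign in all 4 numbers. Named were the 2 largest log2 changes each way, the 6 each way with a best match, the 4 each way with the largest change in mean RPKM, the 4 largest called differences between hemispheres each way, the 3 most abundant steady models and the model whose note gives a gene symbol. Others are said to be named after their values were seen. The members and the lists were chosen with earlier results of these data known. Alternatives were the block, other pseudocounts, filters and scalings, the comparison's libraries alone and leaving out each library or number. Tables were handled in Python 3.11.15 with pandas 2.3.3, numpy 2.4.6 and scipy 1.17.1.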

Additional observations from a re-analysis of the deposited data

Results flagged for a closer look

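Among 84 groups of 4 libraries of the 42 named models, 6 had 1 library far from the other 3 by Dixon's test. Chance alone gives this in about 1 in 20 groups. At 110 cells the vegetal library of number 5 stood apart at 11.8 RPKM for S182.g13272, at 12.6 RPKM for S121.g10521 and at 52.9 RPKM for S443.g06786. Number 4 stood apart at 2184 RPKM for S214.g10945, and number 3 at 148 RPKM for S1166.g06526. At 8 cells number 5 stood apart at 37.7 RPKM for S47.g01399.

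The change from 8 to 110 cells differed between vegetal and animal hemispheres (limma, contrast of the 2 changes) for 19 named models. The difference of log2 changes, vegetal minus animal, was 6.16 for S42.g07916, 6.0 for S104.g10185, 5.93 for S575.g13659 and 5.84 for S423.g11821. It was 5.44 for S184.g04760 and 2.74 for S80.g04926. Rises were larger in animal hemispheres for S44.g07571 at -4.05, S182.g13272 at -4.03, S172.g11557 at -3.87 and S121.g10521 at -3.86. The vegetal change was a fall and lay below the animal change for S3.g05060 at -2.33, S851.g02823 at -1.98, S47.g01399 at -1.37 and S443.g06786 at -1.18. The same held for S178.g03460 at -1.06, S143.g15843 at -0.89, S249.g08034 at -0.81, S78.g14749 at -0.74 and S307.g05898 at -0.69. Of these falls, S3.g05060, S851.g02823, S443.g06786 and S143.g15843 had animal log2 changes of 0.50, 0.65, 0.50 and 0.32. The others had animal changes of -0.39 to -0.001, and no animal change of these falls was called.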

How the results depend on the processing

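The 2661 calls between stages became 4133 with the number as a replicate block, 1653 without number 5 of every group and 1555 without the 110-cell vegetal libraries of numbers 2 and 5, a choice made after seeing the data. Leaving out 1 number gave 1653 to 2232 calls and leaving out 1 library 2153 to 2707. Under the other pseudocount, filters and scalings there were 2413 to 2699 calls, and with the 8 vegetal libraries alone 1966. The 697 called 4-fold changes became 463 under a filter of 5 RPKM, which tests fewer low models, and 641 to 723 when 1 number or library was left out. The 523 differences between hemispheres became 368 to 410 without 1 number and 479 to 510 without 1 library, 349 under the filter of 5 RPKM, 381 with a pseudocount of 0.1 and 627 with the block. No called log2 change or difference of a named model changed sign. The uncalled changes of S20.g11052, S36.g05846, S74.g04608 and S964.g01698 did, with lowest and highest values of -0.12 and 0.24, -0.11 and 0.30, -0.07 and 0.20, and -0.67 and 0.42. Of the log2 changes of 42 models, 66 values lost their call and 3 gained one, while 896 kept their side of the threshold. Of the differences of 19 models, 137 lost their call and 452 kept it. Among the named models the block changed the call of S121.g10521 and no other. The causes were not tested. Depth limits the low models: for a length of 1.5 kb, levels under 0.613 to 1.09 RPKM rest on fewer than 3 read pairs in a vegetal library.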

Other observations

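Some neighbouring members on a scaffold had the same call. Of 10294 adjacent pairs, 321 rose together, 289 fell together and 193 moved in opposite directions. A member beside a rising one rose in 28.8%, against 10.8% over all members of such pairs. Overlapping models cannot be told apart in libraries without strand, and among the 2418 overlapping pairs the share was 45.8% against 8.85%. Among the 231 pairs that do not overlap and share a best match it was 69.8% against 13.6%. In the 7645 pairs with neither overlap nor shared match it was 23.2% against 11.4% for rises and 17.7% against 12.9% for falls. These shares are a description of these libraries and were not tested, and the pairs were examined after the calls were known.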
